A study of Mus musculus with 12 samples.

Results

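The genes described here are 8 of the 14541 genes listed by symbol, chosen as targets of the transcription factor SREBP2. Hmgcs1, Idi1 and Fdps encode enzymes of the mevalonate pathway. Fdft1, Sqle, Lss and Cyp51 encode enzymes that make squalene and turn it into sterols. Insig1 encodes a membrane protein that restrains the pathway. All 8 passed the filter on low values and are among the 11242 genes tested. None of them is an uptake receptor, so uptake genes are described from a separate list.

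The study asked how astrocyte-derived signals act on microglia, the resident macrophages of the brain. Cells carrying the surface protein CD11b were taken with magnetic beads from forebrains of Wild-type mouse pups aged 7 to 9 postnatal days and plated at 40000 to 80000 cells per well. For 6 h the 4 Hevin libraries' cells received 500 nM of the recombinant astrocyte protein Hevin, the 4 LPS libraries' cells received 50 ng/mL lipopolysaccharide, a bacterial cell wall component, and the 4 Media libraries' cells received growth medium alone. Each group has libraries numbered 1 to 4, and libraries of the same number are paired across groups. Whether a group's libraries are separate animals or cultures is not in the labels, and the p-values therefore describe spread between libraries that may be technical.

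Cells make cholesterol from acetyl-CoA through mevalonate, isoprenoid units, squalene and lanosterol. When sterols are scarce, the carrier protein Scap escorts SREBP2 from the endoplasmic reticulum to the Golgi, where proteases release the part that enters the nucleus and raises transcription of synthesis enzymes and uptake proteins. When sterols are plentiful, Insig proteins hold Scap back, and oxysterols such as 25-hydroxycholesterol act in the same direction.

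Promoter sequences were searched for short motifs in the members with a matched start site. RefSeq start sites on build GRCm38.p6 were matched for 5 of the 8 genes, namely Hmgcs1, Idi1, Lss, Cyp51 and Insig1, and none was matched for Fdps, Fdft1 and Sqle. The windows of 300 bases, from 250 before to 50 after the start, were searched on both strands for the core of the sterol regulatory element bound by SREBPs (TCACNCCAC), the NF-Y box (CCAAT) and the Sp1 box (GGGCGG). The sequences below are from the 3 members on which the comparisons turn, and end before the first annotated transcript base. Each is written 5′ to 3′ along the plus strand, with every match in capitals, read as ATTGG or CCGCCC where the match lies on the other strand. They cover chr13:119690151-119690350 (Hmgcs1), chr10:76531365-76531564 (Lss) and chr5:28071163-28071362 (Insig1).
Hmgcs1: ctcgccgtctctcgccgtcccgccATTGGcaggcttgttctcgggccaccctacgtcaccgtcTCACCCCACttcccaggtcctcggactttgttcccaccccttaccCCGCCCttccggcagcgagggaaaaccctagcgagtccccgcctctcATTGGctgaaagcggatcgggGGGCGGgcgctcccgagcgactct
Lss: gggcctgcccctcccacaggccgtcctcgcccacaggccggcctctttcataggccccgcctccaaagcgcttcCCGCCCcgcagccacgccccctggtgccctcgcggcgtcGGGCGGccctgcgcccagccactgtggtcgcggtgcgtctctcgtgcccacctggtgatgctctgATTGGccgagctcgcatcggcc
Insig1: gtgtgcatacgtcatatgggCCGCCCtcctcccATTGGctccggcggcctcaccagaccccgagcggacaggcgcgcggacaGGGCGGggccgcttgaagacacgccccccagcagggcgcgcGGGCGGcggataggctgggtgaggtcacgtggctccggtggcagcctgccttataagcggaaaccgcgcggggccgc
In the Hmgcs1 window the core element TCACCCCAC begins 137 bases before the start, and it is the only match of this motif in the 5 members, whereas 1.24% of all 32851 promoters of the same length hold it. The NF-Y box was found in all 5, against 37.41% of all promoters, and so was the Sp1 box, against 35.66%. Every match in Idi1 and the NF-Y box of Cyp51 lie after the first annotated transcript base. No matches overlapped. A match describes letters in a window and is not evidence that a factor binds there.

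**Figure D1:**
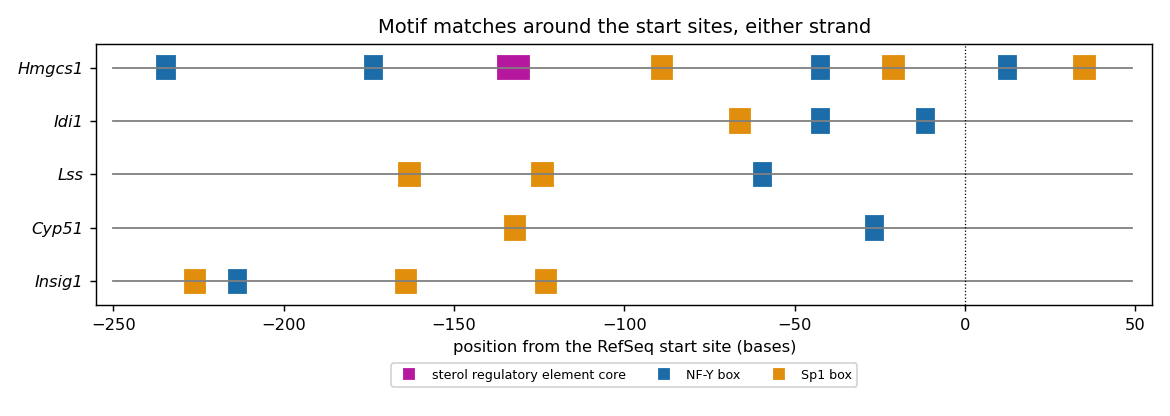
Positions of motif matches in the 5 members with a RefSeq promoter, in bases from the start site (dotted line), with matches on either strand drawn as boxes of their own length. The single sterol regulatory element core lies in Hmgcs1, 137 bases before the start, and each of the 5 genes has NF-Y and Sp1 boxes.

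Gene levels were given as FPKM, fragment counts scaled by gene length and library depth, so levels can be compared between genes. Depth, recovered as whole reads in listed genes, was 18343996 to 27361665 per library. The deposited values include a scaling factor per library, of 0.804 to 0.897 in LPS, 1.022 to 1.108 in Media and 1.022 to 1.159 in Hevin. Removing these factors moved the median log2 difference of all tested genes between LPS and Media from -0.02 to -0.30, and between Hevin and LPS from 0.02 to 0.32, with 736 genes higher and 4990 lower in LPS than in Media in place of 1484 and 1413. Upper quartile scaling gave 1136 and 2466. The microglial genes Csf1r and C1qa stood at 129 FPKM or more in every library, while Tmem119 was at 0.531 to 3.23. The libraries numbered 2 stand apart, with a summed level of 5 neutrophil markers of 1889 to 2038 FPKM against 38.2 to 102 in the other 9. In these bulk libraries, fewer cells of a type and less RNA per cell cannot be told apart.

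Over all 12 libraries the order of the members by mean FPKM was Hmgcs1 at 26.3, Insig1 at 12.5, Sqle at 5.47, Cyp51 at 4.80, Idi1 at 2.29, Lss at 1.28, Fdft1 at 1.27 and Fdps at 1.10. Hmgcs1 lay above Insig1, Insig1 above Sqle and Cyp51 above Idi1 in every library. The ranges of Sqle and Cyp51 overlapped within each group, as did those of Lss, Fdft1 and Fdps. The 3 lowest genes rest on few reads, 15 to 65 per library for Fdps, 48 to 185 for Fdft1 and 54 to 343 for Lss. Several values are also uncertain because exons overlap those of other annotated genes and the strand setting of the counting is not given. On GRCm38, Fdps (chr3:89093588-89101959) shares 26.7% of its exonic bases with Gm43738 on the same strand. Fdft1 (chr14:63145150-63179578) shares 18.3% with the cathepsin B gene Ctsb on the opposite strand. The share was 12.1% for Hmgcs1 (chr13:119690379-119708260), 9.2% for Idi1 (chr13:8885501-8892451), 3.8% for Cyp51 (chr5:4081145-4104746) and 3.5% for Lss (chr10:76531588-76557138). Sqle (chr15:59315077-59331192) and Insig1 (chr5:28071363-28078662) share none.

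In Hevin against Media none of the 8 genes was called, which does not show that their levels were equal. The count was 0 of 8 with limma on log2(FPKM + 1) at a Benjamini-Hochberg adjusted p under 0.05, where 7.37% of all genes tested were called (4.27% higher and 3.1% lower), and 0 of 8 also passed an unadjusted p under 0.05. It was also 0 with limma-voom on recovered reads and with the replicate number as a block, where 21.4% of all genes were called (10.8% higher and 10.6% lower). For 0 of 8 did the 4 Hevin libraries lie all above or all below the 4 Media libraries, which 9.05% and 7.55% of all genes did, 16.6% together. The members' median log2 difference was -0.03, beside 0.00 for all genes tested. In LPS against Media, Lss was lower and the other 7 did not pass, against 25.8% of all genes called, 13.2% higher and 12.6% lower. With the block 2 members were higher, Hmgcs1 and Insig1, and 1 was lower, beside 21.5% and 22.2% of all genes. Lss was the 1 of 8 whose libraries did not overlap, against 25.6% of all genes. The median was 0.08, beside -0.02 for all genes. In Hevin against LPS, Lss was higher and Hmgcs1 lower, 2 of 8 beside 41.7% of all genes (22% higher and 19.7% lower). The block added Idi1 and Insig1 to the lower ones, 4 of 8 beside 57.9% of all genes (29.9% and 28%). Within all 4 replicate numbers, 2 members were lower in Hevin than in Media (Idi1 and Sqle) and 0 higher, where 47% of all genes moved in 1 direction throughout. Against LPS, Hevin was higher within all 4 numbers for 2 members (Fdft1 and Lss) and lower for 3 (Hmgcs1, Idi1 and Insig1), beside 32.8% and 30.5% of all genes, 63.3% together. The Hevin and LPS comparisons share the Media libraries, and each is therefore described by its own values.

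**Figure D2:**
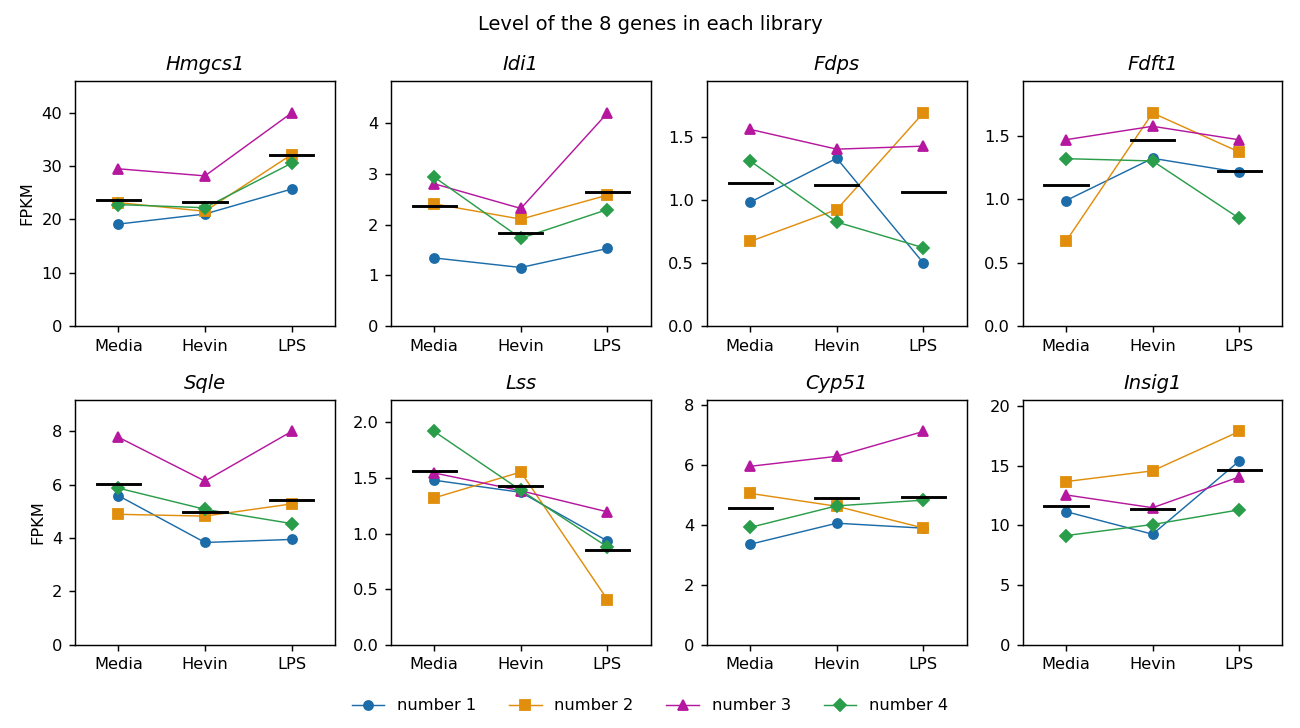
FPKM of the 8 genes in each library, with linear axes from 0, libraries of one replicate number joined by a line and the mean of 4 libraries as a black bar. All 4 LPS libraries lie below all Media and Hevin libraries for Lss, and each number's LPS library lies above its Media library for Hmgcs1 and Insig1.

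Hmgcs1 encodes the cytosolic synthase that makes the precursor from which mevalonate is formed. In libraries 1 to 4 it stood at 19.1, 23.2, 29.5 and 22.8 FPKM in Media, at 21.0, 21.6, 28.2 and 22.2 in Hevin and at 25.7, 32.2, 40.0 and 30.6 in LPS. The groups overlap through library 3, which is the highest in each, but the LPS library is the highest of its number in all 4 numbers. The mean was 23.7 ± 4.31 FPKM in Media, 23.3 ± 3.33 in Hevin and 32.1 ± 5.93 in LPS (SD, n = 4). Within numbers, LPS exceeded Media by 1.34-fold to 1.39-fold. For LPS against Media the log2 difference was 0.42 ± 0.15 (SE, limma adjusted p = 0.060), and with the block it was 0.42 ± 0.06 (adjusted p = 3.35e-04). A rise within all 4 numbers was seen for 25.8% of all genes. Without scaling factors the difference was 0.11 (adjusted p = 0.658), beside the shift of the all-gene median given above.

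Hmgcs1 was lower in Hevin than in LPS, by a log2 difference of -0.44 ± 0.15 (limma adjusted p = 0.0355, 1.55e-04 with the block). It was called in 18 of 28 settings. With no block, leaving out a single library ended the call for Hevin 1, 2 and 4 and for LPS 2, 3 and 4 (adjusted p of 0.0859, 0.0795, 0.0799, 0.0653, 0.1 and 0.0571). Leaving out the 3 libraries numbered 2 ended it with no block (0.142) but not in the blocked fit. The blocked fit without number 3 kept the call too. The call also ended, with no block, under upper quartile scaling, quantile normalization and no scaling factors (0.192, 0.237 and 0.685). Over all alternatives it ranged from 4.41e-05 to 0.685. For Hevin against Media the difference was -0.02 ± 0.15, with a 95% interval on the FPKM + 1 scale from 0.784-fold to 1.25-fold (adjusted p = 0.973).

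Idi1 encodes the isomerase that interconverts the activated isoprene units. Its levels were 1.34, 2.41, 2.81 and 2.94 FPKM in Media, 1.16, 2.11, 2.32 and 1.73 in Hevin and 1.53, 2.58, 4.21 and 2.3 in LPS. The groups overlap, and Hevin was the lowest of each number. The log2 difference of Hevin from LPS was -0.34 ± 0.23 (limma adjusted p = 0.263), with 0.0273 when the block was used. From Media, Hevin differed by -0.25 ± 0.23 (adjusted p = 0.636, 0.163 with the block) and LPS by 0.09 ± 0.23 (0.816). Fdps, which encodes farnesyl diphosphate synthase, had means of 1.13 ± 0.387 FPKM in Media, 1.12 ± 0.289 in Hevin and 1.06 ± 0.588 in LPS (SD, n = 4). Its log2 difference from Media was 0.00 ± 0.21 for Hevin and -0.08 ± 0.21 for LPS on the FPKM + 1 scale. The 95% interval for Hevin on that scale ran from 0.731-fold to 1.37-fold. On recovered reads limma-voom gave a wider spread for Hevin, -0.01 ± 0.38 (SE). The libraries LPS 1 and LPS 4 hold 15 Fdps reads each.

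Fdft1 encodes squalene synthase, which commits farnesyl units to sterols. It ranged from 0.670 to 1.47 FPKM in Media, from 1.30 to 1.68 in Hevin and from 0.851 to 1.47 in LPS. The log2 difference was 0.24 ± 0.15 for Hevin (limma adjusted p = 0.400) and 0.08 ± 0.15 for LPS (0.731). Sqle encodes squalene epoxidase, a rate-limiting enzyme of the later pathway. In libraries 1 to 4 it stood at 5.58, 4.88, 7.77 and 5.86 FPKM in Media, at 3.83, 4.82, 6.13 and 5.07 in Hevin and at 3.94, 5.27, 7.99 and 4.54 in LPS. Hevin lay below Media in all 4 numbers, although the groups overlap, and a fall within all 4 numbers was seen for 23.6% of all genes. The log2 difference of Hevin from Media was -0.24 ± 0.19 (adjusted p = 0.561, 0.139 with the block), and that of LPS was -0.15 ± 0.19 (0.623).

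Lss encodes lanosterol synthase, which closes the sterol rings. Its levels were 1.48, 1.32, 1.55 and 1.92 FPKM in Media, 1.37, 1.55, 1.39 and 1.39 in Hevin and 0.932, 0.405, 1.20 and 0.880 in LPS. Every LPS library was below every Media and every Hevin library, and LPS 2, with 54 reads, was the lowest. Groups were separated downwards in this way for 12.3% of all genes in LPS against Media, and upwards for 20% in Hevin against LPS. The mean fell from 1.57 ± 0.254 FPKM in Media to 0.853 ± 0.329 in LPS (SD, n = 4), with a log2 difference of -0.48 ± 0.14 (limma adjusted p = 0.0234, 0.00907 with the block). On recovered reads limma-voom gave -0.97 ± 0.26 (adjusted p = 0.0167). The call ended when only Media and LPS were fitted (0.0645) and without Media 4 (0.0742), and over all alternatives the adjusted p ranged from 0.00268 to 0.0742. Without the libraries numbered 2, which hold the neutrophil markers, the difference was -0.40 (0.0456). Without scaling factors Lss differed by -0.64, beside the all-gene median of -0.30.

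Lss was higher in Hevin than in LPS, by 0.41 ± 0.14 (limma adjusted p = 0.0338, 0.0160 with the block), and it was called in 17 of 27 settings. Leaving out a single library ended this call for each of the 4 Hevin libraries and for LPS 2 and LPS 4 (adjusted p of 0.0560, 0.0770, 0.0602, 0.0653, 0.0785 and 0.0568), without the 3 libraries numbered 2 (a difference of 0.25, 0.139, and 0.08 with the block), with only both groups fitted (0.0601) and under quantile normalization (0.120). Over all alternatives it ranged from 0.00382 to 0.139. Hevin and Media differed by -0.08 ± 0.14 (adjusted p = 0.836). Lss has an annotated antisense transcript, 4930483K19Rik, over 3.5% of its exonic bases.

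Cyp51 encodes lanosterol demethylase, the first step after ring closure. Its levels were 3.35, 5.05, 5.95 and 3.91 FPKM in Media, 4.05, 4.62, 6.29 and 4.63 in Hevin and 3.89, 3.90, 7.12 and 4.82 in LPS. The 3 groups overlap almost entirely, and library 3 is the highest in each. The log2 difference was 0.09 ± 0.19 for Hevin (limma adjusted p = 0.863) and 0.08 ± 0.19 for LPS (0.806), with 95% intervals on the FPKM + 1 scale from 0.797-fold to 1.43-fold and from 0.791-fold to 1.42-fold.

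Insig1, the restraining protein's gene, is itself a target of the pathway it restrains. Its levels were 11.1, 13.7, 12.5 and 9.14 FPKM in Media, 9.25, 14.6, 11.5 and 10.1 in Hevin and 15.4, 17.9, 14.1 and 11.3 in LPS. The groups overlap, yet the LPS library is the highest of its number in all 4 numbers. The means were 11.6 ± 1.95, 11.3 ± 2.34 and 14.6 ± 2.74 FPKM (SD, n = 4). LPS differed from Media by 0.31 ± 0.17 on the log2 scale (limma adjusted p = 0.201), and by 0.31 ± 0.09 with the block (0.0183). In the blocked fit of the 9 libraries not numbered 2, Insig1 was no longer called in LPS against Media (0.0597). Hevin differed from LPS by -0.34 ± 0.17 (0.115, and 0.0072 with the block) and from Media by -0.04 ± 0.17 (0.939). Without scaling factors the LPS difference was 0.00.

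**Figure D3:**
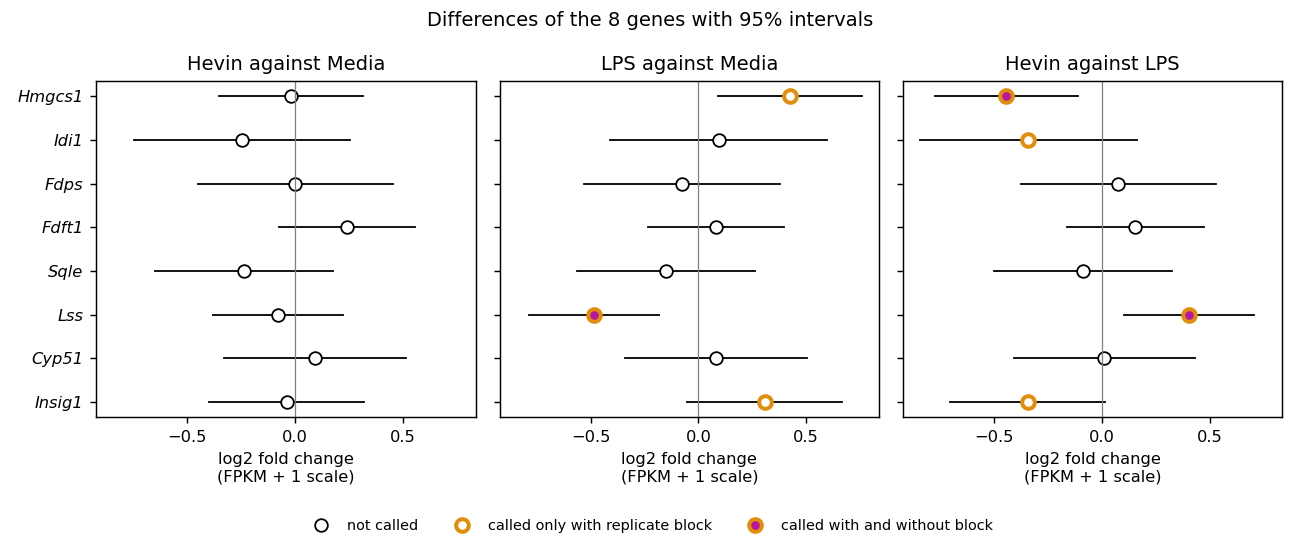
Log2 fold change of each member on the FPKM + 1 scale (points) with its 95% interval without the block (lines), in Hevin against Media, LPS against Media and Hevin against LPS. Lss is called with and without the block in both comparisons that involve LPS, and no member is called in Hevin against Media.

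Markers of other cell types were measured beside these differences. The summed level of 8 astrocyte markers was 113 to 237 FPKM in LPS, 50.9 to 89.4 in Media and 22.2 to 48.7 in Hevin. Most of it was Gja1, at a mean of 174, 60.7 and 25.3 FPKM, while the defining markers Aldh1l1 and Aqp4 reached at most 0.981 and 1.35. The 9 microglial markers summed to 546 to 808 FPKM in LPS, 647 to 868 in Media and 1133 to 1582 in Hevin. The part of these differences in the results for Hmgcs1, Lss and Insig1 was not tested.

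Several members also differed by replicate number. In a limma F test of number beside treatment, chosen after seeing the data, 5 of 8 members passed, beside 36.8% of all genes. These were Hmgcs1 (adjusted p = 0.00125), Idi1 (0.00541), Cyp51 (0.007), Insig1 (0.0103) and Sqle (0.0108), while Fdps, Lss and Fdft1 did not pass (0.410, 0.505 and 0.557). Number 3 was the highest in all 3 groups for Hmgcs1, Sqle and Cyp51, and number 1 the lowest in all 3 for Hmgcs1, Idi1 and Cyp51. Over the 3 groups Cyp51 averaged 3.76, 4.52, 6.45 and 4.46 FPKM in numbers 1 to 4. Idi1 averaged 1.34, 2.37, 3.11 and 2.32 FPKM. Insig1 followed another order, at 11.9, 15.4, 12.7 and 10.2 FPKM, with number 2 the highest in every group.

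Endothelial and neuronal markers also differed by number. The 6 endothelial markers summed to 26.9 to 30.7 FPKM in number 1, 63.0 to 76.2 in number 2, 141 to 159 in number 3 and 93.8 to 107 in number 4. The 8 neuronal markers summed to 3.02 to 3.41, 4.52 to 10.2, 18.2 to 25.3 and 7.61 to 10.6 FPKM in the same order. All 6 endothelial and all 6 tested neuronal markers passed the test of number. Their part in the members' differences between numbers was not tested.

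**Figure D4:**
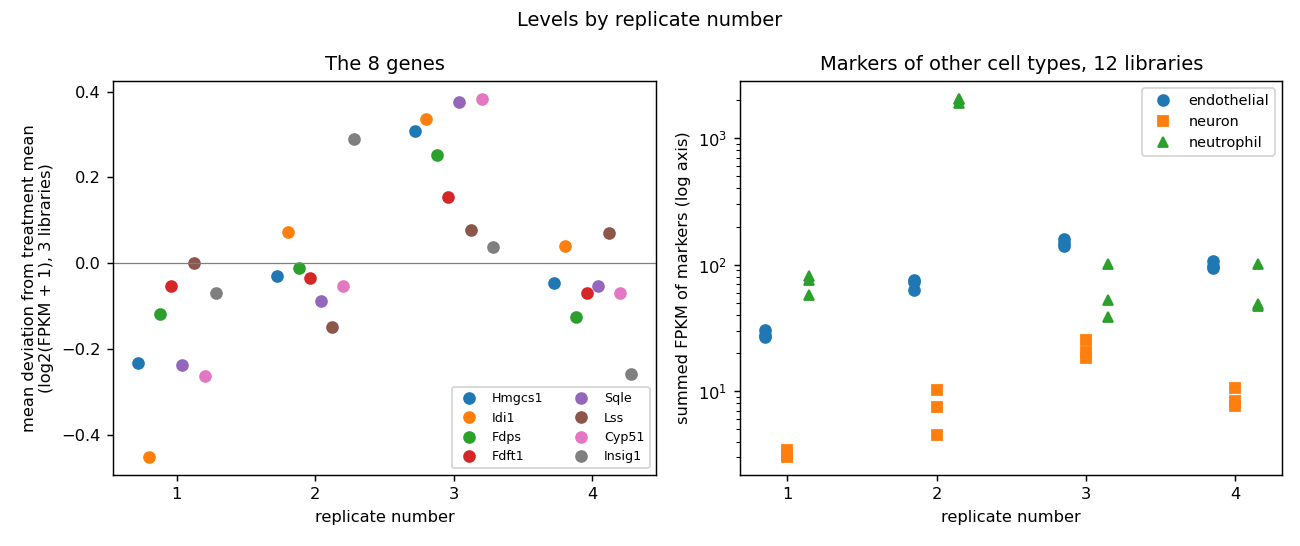
Left, deviation of each member from its treatment mean on the log2(FPKM + 1) scale, averaged over the 3 libraries of a number. Right, summed FPKM of endothelial, neuronal and neutrophil markers in each of the 12 libraries on a log axis. Most members are highest in number 3, as are the endothelial and neuronal sums, whereas Insig1 and the neutrophil sum are highest in number 2.

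The members' deviations from their group means ran together for part of the list. Over the 12 libraries, which share their number across groups, Pearson's r was 0.90 for Hmgcs1 and Cyp51, 0.87 for Hmgcs1 and Sqle and 0.85 for Hmgcs1 and Idi1. It was 0.11 for Hmgcs1 and Insig1 and 0.13 for Hmgcs1 and Lss. The genes most like the mean standardized level of the 8 members over the 12 libraries were Dcx (r = 0.926), Dpysl5 (0.920), Npdc1 (0.907), Tspyl4 (0.903), Clip3 (0.901), Ndn (0.897), Gucy1a3 (0.891) and Sox11 (0.890). Dcx, at means of 0.899 to 1.27 FPKM, is a marker of young neurons and belongs to the neuronal list above. The least like were Gpatch2l (-0.867), Mlxip (-0.863) and Rin2 (-0.858). Among the other cholesterol synthesis genes, Tm7sf2, Msmo1 and Dhcr7 had r of 0.608, 0.527 and 0.462, and ranked 654, 817 and 1009 of 11232 genes.

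Of 14 further genes listed with cholesterol synthesis 13 were tested, all but Mvk. The list holds Ggps1, whose enzyme acts on a side branch that leaves the pathway at the farnesyl units. In Hevin against Media 0 of the 13 passed limma's test, beside 7.37% of all genes, 2 had an unadjusted p under 0.05 and limma-voom called 0. With the block 2 were lower, beside 10.6% of all genes. Among them was Msmo1, a sterol demethylation enzyme's gene, at 34.4 ± 7.94 and 27.0 ± 4.87 FPKM (SD, n = 4; adjusted p = 0.398 by limma, 0.00436 with the block).

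In LPS against Media 1 of the 13 was higher and 0 lower, beside 13.2% and 12.6% of all genes. With the block 1 was higher and 4 lower, beside 21.5% and 22.2% of all genes. Acat2, whose enzyme joins acetyl-CoA units at the entry of the pathway, rose from 4.02 ± 0.871 to 6.64 ± 0.879 FPKM (SD, n = 4), with non-overlapping libraries and a log2 difference of 0.61 ± 0.14 (limma adjusted p = 0.00723, but 0.0781 without scaling factors). The 4 that were lower with the block act after lanosterol, namely Msmo1 (adjusted p = 6.76e-05), Nsdhl (0.0122), Ebp (0.0375) and Hsd17b7 (0.0399). Without the block none of them passed, with adjusted p of 0.0656, 0.0589, 0.0745 and 0.101. The median log2 difference of the 13 was -0.10, beside -0.02 for all genes tested. Without scaling factors 6 of the 13 were lower and 0 higher, where 4990 of all 11242 genes tested were lower and 736 higher. In Hevin against LPS 3 of the 13 were higher, Mvd, Nsdhl and Ebp, and 3 lower, among them Acat2 and Ggps1. Of all genes 22% were higher and 19.7% lower, 41.7% together. Ggps1 was called in 12 of 28 settings and turned to 0.11 without scaling factors. Its call also ended under upper quartile scaling, under quantile normalization and when only both groups were fitted (limma adjusted p of 0.204, 0.272 and 0.0886). Mvd was called in 23 of 27 settings. With the block 5 of the 13 were higher and 3 lower, beside 29.9% and 28% of all genes.

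**Figure D5:**
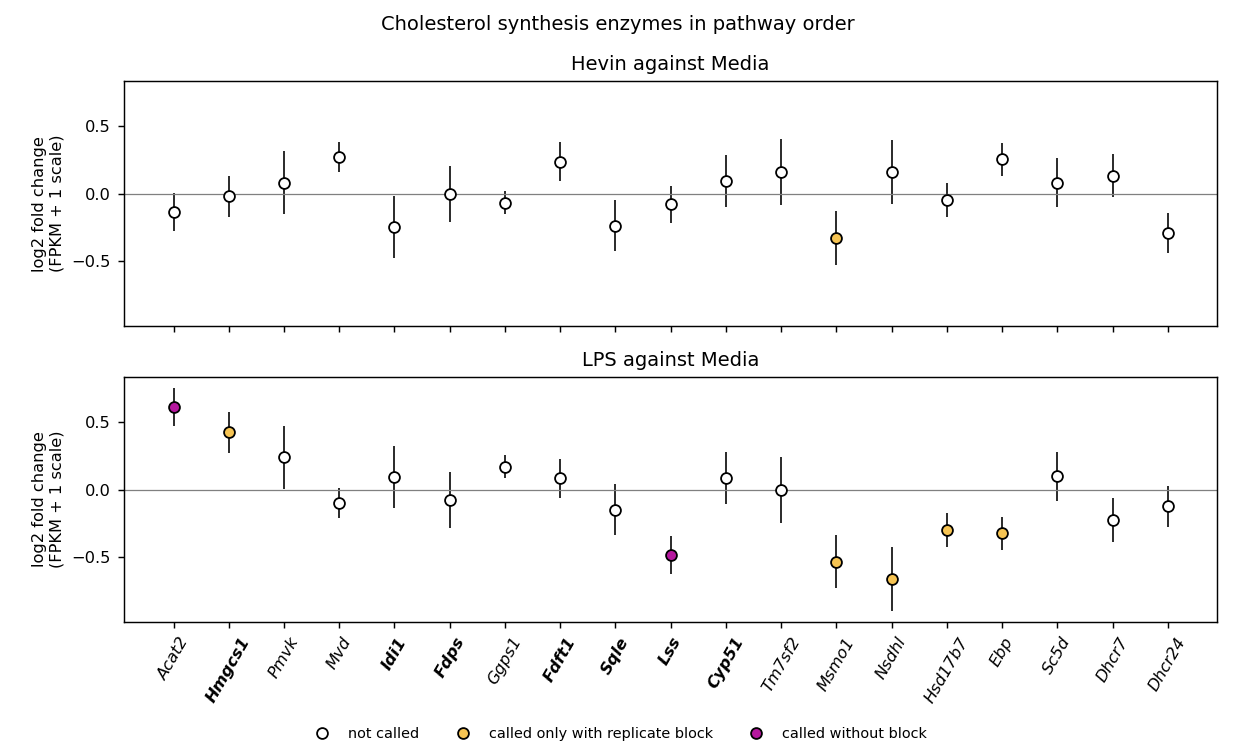
Log2 fold change ± SE on the FPKM + 1 scale of cholesterol synthesis genes and the side branch gene Ggps1 in pathway order, for Hevin against Media and LPS against Media. The 7 enzymes among the members are in bold. Filled points are called, in yellow only with the block and in purple without it, and the called genes lie on both sides of 0 in LPS (Acat2 0.61, Lss -0.48).

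Of 7 genes that encode SREBPs or control them 0 passed limma's test in Hevin against Media, with 0 at an unadjusted p under 0.05. In LPS against Media 0 passed, with 1 at an unadjusted p under 0.05, and limma-voom also called 0 in each. Of all genes limma called 7.37% and 25.8% in these comparisons. In Hevin against LPS 1 of the 7 was higher, the gene of the SREBP-cleaving protease Mbtps2 (limma adjusted p = 0.0189), beside 22% of all genes. Mbtps2 was called in 24 of 28 settings. With no block its call ended without Hevin 1, Hevin 2, LPS 3 or the libraries numbered 2 (up to 0.0844). Srebf2 itself stood at 19.2 ± 2.21 FPKM in Media, 16.2 ± 0.727 in Hevin and 21.7 ± 4.88 in LPS (SD, n = 4). Hevin differed from LPS by -0.37 ± 0.14 in log2 Srebf2 level (adjusted p = 0.0503, 0.00572 with the block, 0.0479 with limma-voom), but by -0.03 without scaling factors (0.841). Scap, the carrier gene, differed between LPS and Media by -0.32 ± 0.12 (adjusted p = 0.0639, 0.0207 with the block). Srebf1 and Insig2 did not pass in any of the 3 comparisons, with or without the block.

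Among uptake and transport genes, Lrp1 encodes a large endocytic receptor for lipoproteins and other ligands. It rose from 43.7, 37.5, 30.4 and 34.2 FPKM in Media to 110, 91.0, 86.3 and 105 in Hevin, a log2 difference of 1.41 ± 0.18 (limma adjusted p = 6.01e-04) that was called in all 28 settings. In LPS, Lrp1 was lower than in Media (adjusted p = 0.0386), as was the HDL receptor gene Scarb1 (0.0201), and these were called in 19 and 23 of 28 settings. The Scarb1 call ended without Media 1, Media 4, LPS 3 or LPS 4 (up to 0.0604). Without the libraries numbered 2 it ended in the fit with no block (0.0502) but not in the blocked fit. Leaving out a single library ended the Lrp1 call for Media 1, 2 and 4, Hevin 4 and LPS 2, 3 and 4, with adjusted p up to 0.105. The lysosomal sterol carrier gene Npc2 was higher in LPS (0.0352), but it was called in 18 of 28 settings and its sign turned without scaling factors and under quantile normalization.

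Ch25h encodes the enzyme that makes 25-hydroxycholesterol. Its mean of 1.93 ± 0.393 FPKM in Media rose to 16.2 ± 10.6 with LPS (SD, n = 4), a log2 difference of 2.34 ± 0.46 (limma adjusted p = 0.00326), and stood at 3.36 ± 2.43 in Hevin (adjusted p = 0.720). Among the 9 tested genes of its list, which also holds the sterol exporters, 4 were higher and 0 lower in Hevin than in Media, namely Abca1, Abcg1, Nr1h3 and Mylip, and the count was also 4 with the block, beside 4.27% and 10.8% of all genes called higher. Without the 3 libraries numbered 2 the log2 differences were 0.73 for Nr1h3, 0.79 for Abcg1 and 0.84 for Mylip, beside 0.80, 0.82 and 0.82 with them. The limma adjusted p of that fit, which has no block, were 0.142, 0.0521 and 0.0646. With the block and without number 2 all of them stayed called. Over all 12 libraries the blocked adjusted p were 0.00386, 0.00101 and 1.4e-05. Nr1h3 was called in 11 of 27 settings, and not with limma-voom (0.0669). Abcg1 was called in 23 of 28, and its call also ended without Media 1, Media 2, Hevin 3 or Hevin 4 (up to 0.067). In LPS against Media 2 of the 9 were higher, Ch25h and Abca1, and 1 lower, Abcg1, beside 13.2% and 12.6% of all genes. In Hevin against LPS 4 were higher and 1 lower, beside 22% and 19.7% of all genes. The Abca1 call in LPS was made in 19 of 28 settings. Its log2 difference of 0.36 became 0.24 under upper quartile scaling, -0.08 under quantile normalization and 0.03 without scaling factors, and the call also ended without Media 1, 2 or 3 or LPS 1 or 4 (up to 0.079). Of 9 tested SREBP1-related fatty acid genes 1 was higher in Hevin than in Media, the desaturase gene Fads1 (0.48, limma adjusted p = 0.0125), beside 4.27% of all genes. In the 9 libraries not numbered 2 its adjusted p was 0.0527 without the block, and it stayed called with the block. Under the block Scd2, another desaturase gene, was also higher in Hevin (0.87, adjusted p = 1.58e-04, but 0.318 without the block). Of the same 9 genes 2 were lower in LPS than in Media, Fads1 and the acetyl-CoA synthetase gene Acss2, beside 12.6% of all genes. Against LPS, 3 of these 9 were higher in Hevin and 0 lower, beside 22% and 19.7% of all genes. Limma-voom also called 3, and 3 had an unadjusted p under 0.05.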

How the data were processed

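Messenger RNA of 12 microglia libraries, 4 per group, was sequenced from a stranded kit after 100 ng of RNA went into each library. The authors deposited 1 table of FPKM values per gene symbol, and per the submitters' processing notes the build was mm10 and the tools were, with no role given, edgeR 3.30.3 in R 4.0.0, Bowtie2 2.3.5.1, Subread 1.6.3 with featureCounts, Trimmomatic 0.39 and FastQC 0.11.7. The annotation, strand setting and any filter were not given in the sources used here. FPKM steps gave whole reads, 18343996 to 27361665 per library, which limit the precision of genes with few reads. Genes at 1 FPKM or more in at least 4 libraries were tested on log2(FPKM + 1) with limma 3.58.1 (trend, R 4.3.3) in 1 fit of the 12 libraries, with Benjamini-Hochberg adjustment over 11242 genes and a threshold of 0.05. Fold changes on this scale understate those of low genes. Groups follow the labels. The deposited column names join libraries of the same number, and deviations from group means correlated at r of 0.23 to 0.784 in all 12 same-number pairs and at -0.201 on average between different numbers, so the number was used as a block in an alternative fit. Other alternatives were pseudocounts of 0.1 and 5, no filter or a filter at 5 FPKM, upper quartile, quantile and no scaling, limma-voom on recovered reads, only both groups compared, and each library or number left out. Only the fit with no block was tried on simulated counts, which had a fixed spread and no effect of replicate number. That trial therefore does not cover the blocked or limma-voom fits, or the differences between numbers in these libraries. The members and lists were chosen with earlier results of these data known. Named are all 8 members, genes of the lists that passed a test, some of the 3 with the smallest p of each list in each comparison, which the rule also allowed, Srebf1, Srebf2, Scap, Insig2 and Ch25h, and the 8 genes most and 3 least like the members. Figures were drawn with Python 3.11.15 and matplotlib 3.10.9. Protein sequences were not used here. Some genes of the lists are not reported here.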

Additional observations from a re-analysis of the deposited data

Results flagged for a closer look

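In 2 of 24 sets of 4 libraries (8 members in 3 groups) a single library stood apart from the other 3, and chance gives about 1 in 20. Hmgcs1 in library Hevin 3 stood at 28.19 FPKM, with a gap to the next library of 0.835 of the group's range, and number 3 was also the highest for Hmgcs1 in Media and LPS. Lss in library Hevin 2 stood at 1.554 FPKM, with a gap of 0.903 of the range, while Lss was lowest in number 2 in Media and LPS.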

How the results depend on the processing

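In Hevin against Media 0 members were called in every alternative. In LPS against Media the count of members called was 1, and it became 3 with the replicate block, 3 with limma-voom and the replicate block, 2 without number 2 under the block, 3 without number 3 under the block, 0 when only both groups were fitted and 0 with a filter of 5 FPKM, which leaves 4 members tested and Lss out. Leaving out 1 library gave 0 to 2, with 0 without Media 4 and 2 without Media 3 or LPS 1. In Hevin against LPS the count was 2, and it became 4 with the block and 4 with limma-voom and the block. It became 1 with only both groups, the filter of 5 FPKM, upper quartile scaling or no scaling factors. It became 0 under quantile normalization or, with no block, without the libraries numbered 2. With the block and without number 2 Hmgcs1 stayed called. Leaving out 1 library gave 0 to 2. For the other 13 synthesis genes in Hevin against Media the count of 0 became 1 with the filter of 5 FPKM, 2 with the block, 2 with limma-voom and the block, and 2 or 1 with the block and without numbers 2 or 3, and leaving out 1 library gave 0. In LPS against Media their count of 1 became 3 under upper quartile scaling, 6 without scaling factors, 5 with the block, 4 with limma-voom and the block, and 4 or 3 with the block and without numbers 2 or 3, and leaving out 1 library gave 1 to 3. Of all 11242 genes tested, 2897 were called in the main fit, 3602 under upper quartile scaling, 5726 without scaling factors and 4914 with the block. In Hevin against LPS their count of 6 became 3 under quantile normalization, and leaving out 1 library gave 4 to 6. Of all genes tested 4685 were called in the main fit of this comparison and 4180 under quantile normalization. The sign turned in 51 of the members' alternatives, none of them called. Without scaling factors these were Hmgcs1 in Hevin against Media (0.01), Idi1, Fdft1 and Cyp51 in LPS against Media (-0.133, -0.091 and -0.185) and Sqle in Hevin against LPS (0.21). Upper quartile scaling turned Sqle in Hevin against LPS (0.021) and Cyp51 in LPS against Media (-0.014), and quantile normalization turned Fdps in Hevin against Media (-0.056) and Fdps and Cyp51 in Hevin against LPS (-0.044 and -0.124). Fdps in Hevin against Media turned with a pseudocount of 5 (-0.001), with limma-voom (-0.01) and with limma-voom and the block (-0.029). Without the libraries numbered 2, with or without the block, Hmgcs1 (0.01) and Fdps (-0.066) turned in Hevin against Media, Fdft1 in LPS against Media (-0.058) and Cyp51 in Hevin against LPS (-0.052). With the block and without number 3 Idi1 turned in LPS against Media (-0.025). Leaving out 1 library gave in Hevin against Media -0.11 to 0.09 for Hmgcs1, -0.109 to 0.096 for Fdps, -0.017 to 0.209 for Cyp51 and -0.156 to 0.045 for Insig1. In LPS against Media it gave -0.092 to 0.255 for Idi1, -0.219 to 0.062 for Fdps, -0.025 to 0.169 for Fdft1 and -0.079 to 0.198 for Cyp51. In Hevin against LPS it gave -0.06 to 0.22 for Fdps, -0.201 to 0.087 for Sqle and -0.095 to 0.173 for Cyp51. The cause of these turns was not tested. Among single members 542 alternatives kept direction and call, 22 lost a call and 18 gained one.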
